A study of Mus musculus with 6 samples.

Results

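Striated muscle builds its contractile unit, the sarcomere, from proteins that exist as several isoforms encoded by separate genes, and the members described here are 10 genes for isoforms known best from skeletal muscle. They were chosen by symbol from a given list of sarcomere genes, *Acta1*, *Actn3*, *Myh3*, *Myh8*, *Myl1*, *Mylpf*, *Tnnt1*, *Tnnt3*, *Tnni2* and *Tnnc2*, and all 10 were found among the 54532 genes of the count table. RNA was measured by RNA-seq in heart samples of mouse embryos at embryonic day 9.5 (E9.5), 3 homozygous for a conventional null allele of *Smyd1* in all tissues (*Smyd1-KO*) and 3 wild type (WT), with no treatment in either group. Each sample is called a heart below, although whether it held a single heart or a pool is not given in the sources used here. SMYD1 is a histone methyltransferase of heart and skeletal muscle, and embryos that lack it do not survive far beyond this stage, so the comparison asks how cardiac transcription stands just before the defect becomes lethal. The totals, 48627825 to 64217529 counts per heart, were lowest for *Smyd1-KO* heart 1 and highest for WT heart 3.

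In the sarcomere, thin filaments of actin carry the troponin complex, in which troponin C binds calcium, troponin I inhibits contraction and troponin T anchors the complex to tropomyosin. Thick filaments consist of myosin heavy chains with their essential and regulatory light chains, and alpha-actinin crosslinks the actin filaments at the Z-disc. The early embryonic heart is known to transcribe some skeletal isoforms, foremost skeletal alpha-actin, together with the cardiac ones, and the cardiac isoforms come to dominate as the heart matures. Each skeletal gene was therefore set against the cardiac counterparts of its protein family.

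*Smyd1* itself was read first as a check of the labels. It had 101 CPM (read counts scaled to library size with edgeR's TMM factors), 222 CPM and 206 CPM in *Smyd1-KO* hearts 1 to 3 against 414 CPM, 379 CPM and 270 CPM in WT hearts 1 to 3. The *Smyd1-KO* values were all under the WT values (log2 fold change -1.01, SE 0.30, edgeR adjusted *P* = 0.0973), although the test did not pass the threshold of 0.05. The deposited counts cover the whole gene, and the part deleted in the allele is not given in the sources used here, so transcript remaining in *Smyd1-KO* hearts says nothing about the protein. *Chd4*, the remodeler gene studied alongside *Smyd1*, had 805 CPM, 742 CPM and 719 CPM in *Smyd1-KO* hearts and 841 CPM, 997 CPM and 939 CPM in WT hearts (log2 fold change -0.29, SE 0.10, edgeR adjusted *P* = 0.130).

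The hearts were not alike in makeup, and *Smyd1-KO* heart 1 stood apart. The 12 cardiac counterparts summed to 9550 CPM in that heart, against 19911 CPM and 19975 CPM in *Smyd1-KO* hearts 2 and 3. In WT hearts 1 to 3 the same sum was 21826 CPM, 19250 CPM and 12379 CPM, so WT heart 3 was the lowest of its genotype. The 12 cardiomyocyte markers, with *Ttn* the most abundant, likewise summed to 1576 CPM in *Smyd1-KO* heart 1 and to 2402 to 3542 CPM in the other 5 hearts. Their median log2 fold change was -0.14 (-0.37 to 0.10 with a heart left out, highest without *Smyd1-KO* heart 1), with 0 of 12 called and 2 at an unadjusted *P* under 0.05 in edgeR, and 1, *Nppa*, called by DESeq2 and by edgeR without *Smyd1-KO* heart 1. *Smyd1-KO* heart 1 also had by far the highest summed level of markers of skeletal myogenic cells, although not of every marker. The 12 markers of those cells summed to 39.4 CPM there and to 2.31 to 3.30 CPM in the other 5 hearts, and *Pax3*, a transcription factor of muscle progenitors and neural crest, made up 23.1 CPM of the sum. Of the 6 that were tested edgeR and DESeq2 called 0, with 0 at an unadjusted *P* under 0.05 in edgeR, and their median log2 fold change was 1.06, and -0.20 without *Smyd1-KO* heart 1. *Myog*, the defining factor of differentiating skeletal muscle, had 127 counts in *Smyd1-KO* heart 1, 1 count in WT heart 2, 3 counts in WT heart 3 and 0 counts in the other 3 hearts. *Pax7* had 213 counts in *Smyd1-KO* heart 1 and 1 to 8 counts elsewhere. The myoblast fusion gene *Mymk* was near 0 in all hearts, with 1 count in *Smyd1-KO* heart 1 and 2 counts in WT heart 3. Other markers of the list were higher in another heart. *Chrna1* had 0.206 CPM in *Smyd1-KO* heart 1 and 0.369 CPM in WT heart 1, and *Chrnd* had 0.309 CPM there and 0.425 CPM in WT heart 2. *Chrng* had 0.699 CPM in *Smyd1-KO* heart 1 and 1.51 CPM in *Smyd1-KO* heart 3. The 4 markers of pharyngeal mesoderm, with *Tbx1* the most abundant, summed to 138 CPM and 132 CPM in *Smyd1-KO* hearts 1 and 2, to 128 CPM and 119 CPM in WT hearts 2 and 3, and to 44.0 CPM and 59.5 CPM in *Smyd1-KO* heart 3 and WT heart 1. Of these 4 genes edgeR and DESeq2 called 0, with 0 at an unadjusted *P* under 0.05 in edgeR and a median of -0.20 (-0.39 to -0.04 with a heart left out). The part of these tissues in the values of single members was not tested, and calls that differ without *Smyd1-KO* heart 1 are given beside the results.

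**Figure D1:**
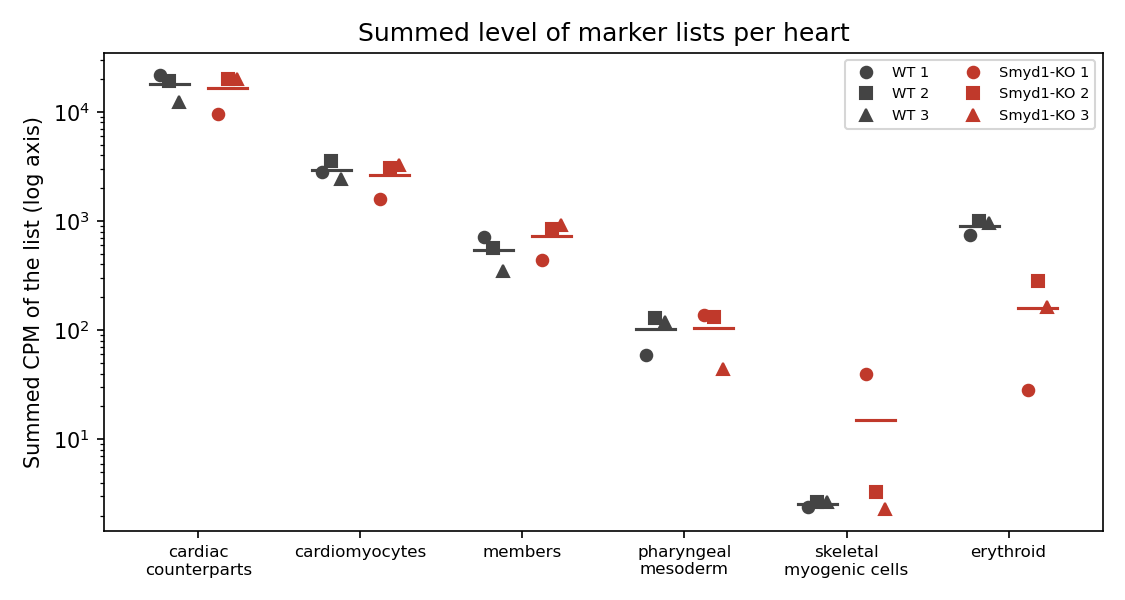
Summed CPM of 6 gene lists in each heart on a log axis, WT hearts in grey and *Smyd1-KO* hearts in red, with circles, squares and triangles for replicates 1, 2 and 3 and bars for the mean of 3 hearts. *Smyd1-KO* heart 1 has the lowest sum of the cardiac counterparts, 9550 CPM, and the highest sum of the skeletal myogenic markers, 39.4 CPM.

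The sums of blood cell markers did not overlap between the genotypes. The 10 erythroid markers, with *Hba-x* the most abundant, summed to 28.1 CPM, 283 CPM and 164 CPM in *Smyd1-KO* hearts 1 to 3 and to 750 CPM, 1002 CPM and 961 CPM in WT hearts 1 to 3. *Gata1*, the master transcription factor of red cell formation (log2 fold change -3.14, SE 0.68, edgeR adjusted *P* = 0.0445), and *Alas2*, which starts haem synthesis in red cells (-2.19, SE 0.46, 0.0428), were called lower, and the median of the list was -2.65. DESeq2 called both genes as well. In edgeR both were called without *Smyd1-KO* heart 1, as were further genes of the list, *Hba-x* among them (log2 fold change -2.31), all lower in *Smyd1-KO* hearts, but neither *Gata1* nor *Alas2* was called when any other heart was left out, while the median of the list ran from -3.49 to -2.20. The 8 endothelial and endocardial markers, led by *Kdr*, summed to 609 to 930 CPM in *Smyd1-KO* hearts and 603 to 731 CPM in WT hearts, with a median of 0.08 that was -0.19 without *Smyd1-KO* heart 3. Of these, edgeR called 0, with 4 at an unadjusted *P* under 0.05, and DESeq2 called 3, with *Kdr* higher (log2 fold change 0.71) and *Nfatc1* (-0.83) and *Npr3* (-0.51) lower. With edgeR *Kdr* alone was called when *Smyd1-KO* heart 1 was left out. For the 8 smooth muscle markers, led by *Acta2*, which early cardiomyocytes also express, the sums were 1749 to 3305 CPM and 2149 to 3722 CPM, with a median of -0.34 (-0.47 to -0.06 with a heart left out), 0 called and 2 at an unadjusted *P* under 0.05 in edgeR, and 1, *Myh11*, called by DESeq2 and by edgeR without WT heart 3. Whether the makeup of the hearts contributed to any difference below was not tested, and in bulk RNA fewer cells of a type and less RNA per cell cannot be told apart.

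Of the 10 members, 7 had enough counts for a test, and 0 of these 7 were called at an adjusted *P* under 0.05 with a log2 fold change of 0.5 or more in either direction in edgeR's quasi-likelihood test. Over all 19372 tested genes, 830 (4.28%) were called, 555 (2.86%) higher and 275 (1.42%) lower in *Smyd1-KO* hearts, and this count ran from 97 without WT heart 2 to 1256 without *Smyd1-KO* heart 1. At an unadjusted *P* under 0.05, edgeR found 1 member, *Actn3*, and 4857 genes in all (25.1%). DESeq2, which tested 8 members, called 1, again *Actn3*, and 1749 of 18821 genes (9.29%). The median log2 fold change of the 7 tested members was 0.39, beside -0.0026 for all tested genes, with 5 positive and 2 negative values. When each heart was left out in turn, this median ran from -0.07 to 0.69. The other 3 members, *Tnnc2*, *Myh3* and *Myh8*, are given by their counts.

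Levels differed widely between members. Scaled by the length of the principal transcript, the mean level in WT hearts was 303 CPM per kb for *Acta1* (SD 115, n = 3) and 50.9 CPM per kb for *Myl1* (SD 8.08, n = 3), and neither range over the hearts reached that of the next gene. *Tnnt1* followed with 21.7 CPM per kb (SD 7.01), *Mylpf* with 20.2 CPM per kb (SD 5.76), *Tnnt3* with 13.2 CPM per kb (SD 2.26) and *Tnni2* with 10.9 CPM per kb (SD 3.78). In this group of 4 genes, neighbours in the order overlapped between hearts. *Actn3* was lower still, at 1.62 CPM per kb (SD 0.252). On the same scale *Myh8* had 0.065, *Tnnc2* 0.023 and *Myh3* 0.011 CPM per kb in WT hearts, at counts too low for an order. The cardiac counterparts stood far above most members, with 3648 CPM per kb for *Actc1*, the most abundant of them, 2469 for *Myl7*, 1365 for *Tnnt2* and 176 for *Actn2*.

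**Figure D2:**
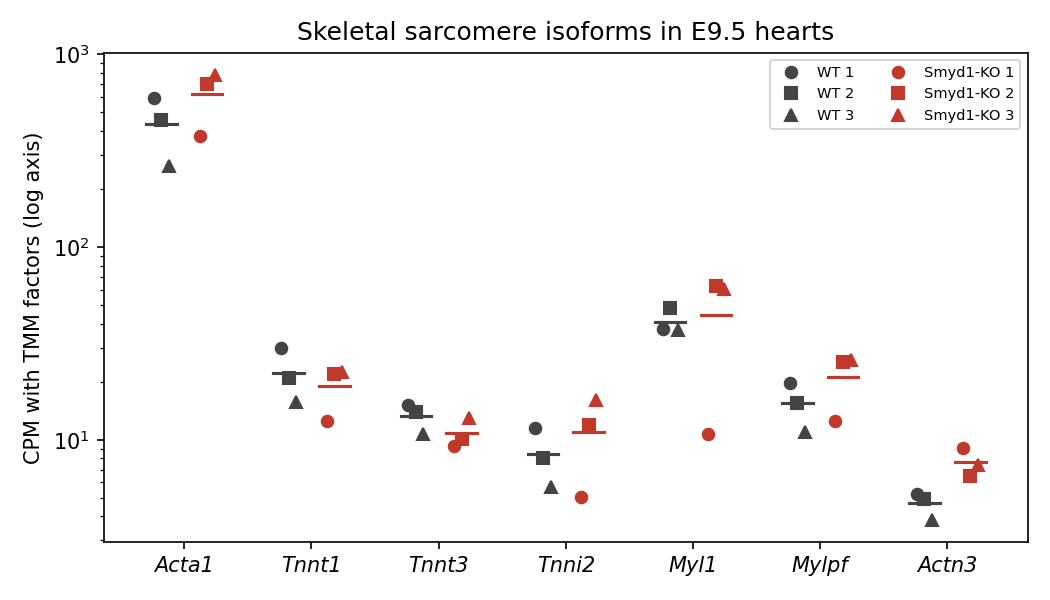
Level in CPM, on a log axis and not scaled by gene length, of the 7 tested members in each heart, WT in grey and *Smyd1-KO* in red, with circles, squares and triangles for replicates 1, 2 and 3 and bars for the mean of 3 hearts. *Smyd1-KO* heart 1 is the lowest heart for *Tnnt1*, *Tnnt3*, *Tnni2* and *Myl1*, and the highest, at 9.09 CPM, for *Actn3*.

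Among the thin filament genes, *Acta1* (ENSMUSG00000031972, chr8:123891769-123894751, minus strand) encodes skeletal alpha-actin. It had 379 CPM, 701 CPM and 780 CPM in *Smyd1-KO* hearts 1 to 3 and 593 CPM, 456 CPM and 263 CPM in WT hearts 1 to 3. The genotypes overlapped, since *Smyd1-KO* heart 1 lay below WT hearts 1 and 2. For *Acta1* a log2 fold change of 0.50 was found, with a 95% interval from -0.31 to 1.32 (edgeR adjusted *P* = 0.411, n = 3 per genotype). It was 0.76 without *Smyd1-KO* heart 1, and ran from 0.24 without WT heart 3 to 0.79 without WT heart 1. Of the windows of 75 bases, the read length, in its annotated transcripts, 0.394% also occur in transcripts of another gene and 0 of those in *Actc1*.

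*Tnni2* (ENSMUSG00000031097, chr7:142441808-142444410, plus strand), the troponin I isoform of fast skeletal fibres, had 245, 701 and 917 counts in *Smyd1-KO* hearts, or 5.04 CPM, 11.9 CPM and 16.1 CPM. The WT hearts had 684, 510 and 380 counts, or 11.5 CPM, 8.03 CPM and 5.71 CPM. *Smyd1-KO* heart 1 was the lowest of all 6 hearts and *Smyd1-KO* hearts 2 and 3 were the highest, so the log2 fold change of 0.39 had a wide 95% interval, from -0.61 to 1.39 (edgeR adjusted *P* = 0.615). It was 0.73 without that heart and 0.69 without WT heart 1, but 0.17 without WT heart 3 and 0.0109 without *Smyd1-KO* heart 3.

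Both skeletal troponin T genes had negative log2 fold changes. *Tnnt1* (ENSMUSG00000064179, chr7:4504570-4516382, minus strand), the slow isoform, ranged from 12.4 to 22.4 CPM in *Smyd1-KO* hearts and from 15.8 to 30.0 CPM in WT hearts (log2 fold change -0.23, SE 0.29, edgeR adjusted *P* = 0.662). Without *Smyd1-KO* heart 1 its log2 fold change was -0.0054. *Tnnt3* (ENSMUSG00000061723, chr7:142498836-142516009, plus strand), the fast isoform, ranged from 9.32 to 13.0 CPM in *Smyd1-KO* hearts and from 10.7 to 15.1 CPM in WT hearts (log2 fold change -0.30, SE 0.19, edgeR adjusted *P* = 0.374). The genotypes overlapped for both genes. *Tnnc2* (ENSMUSG00000017300, chr2:164777161-164779967, minus strand), the calcium-binding troponin C of fast fibres, had 0, 0 and 1 counts in *Smyd1-KO* hearts and 1 count in each WT heart, at or under the floor of 3 counts, which corresponds to 0.0450 to 0.0617 CPM in these libraries. Its level was not detectable at this depth, while its cardiac counterpart *Tnnc1* had a mean of 443 CPM in WT hearts. This floor covers counting error only.

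Among the thick filament genes, *Mylpf* (ENSMUSG00000030672, chr7:127208890-127214298, plus strand), the regulatory light chain of fast skeletal myosin, had 12.5 CPM, 25.4 CPM and 25.9 CPM in *Smyd1-KO* hearts 1 to 3 and 19.8 CPM, 15.6 CPM and 10.99 CPM in WT hearts 1 to 3. *Smyd1-KO* hearts 2 and 3 were the highest, and *Smyd1-KO* heart 1 lay within the WT range. The log2 fold change was 0.46 with a 95% interval from -0.28 to 1.20 (edgeR adjusted *P* = 0.406). It was 0.73 without *Smyd1-KO* heart 1, 0.30 without *Smyd1-KO* heart 3 and 0.27 without WT heart 3.

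*Myl1* (ENSMUSG00000061816, chr1:66924295-66945404, minus strand), the skeletal essential light chain gene, was the member that depended most on *Smyd1-KO* heart 1. It had 10.7 CPM in that heart, against 62.6 CPM and 60.2 CPM in *Smyd1-KO* hearts 2 and 3. The WT hearts had 37.3 CPM, 48.4 CPM and 36.9 CPM, so that heart was the lowest of the 6 and the other *Smyd1-KO* hearts the highest. With all hearts the log2 fold change was 0.12 (SE 0.55, edgeR adjusted *P* = 0.913). Without *Smyd1-KO* heart 1 it was 0.59 (SE 0.13) and was called, with an edgeR adjusted *P* of 0.0433, where the values over all alternatives ran from 0.0433 to 0.9998. In that fit of 5 hearts 8 members were tested and 1 was called, beside 1256 of 20009 genes (6.28%), and 6 members, *Acta1*, *Tnni2*, *Myl1*, *Mylpf*, *Actn3* and *Myh8*, had an unadjusted *P* under 0.05, beside 27.3% of genes. Without *Smyd1-KO* heart 2 the log2 fold change of *Myl1* was -0.20, and without *Smyd1-KO* heart 3 it was -0.15. Of its windows of 75 bases 8.08%, the highest share of any member, also occur in transcripts of the pseudogene *Mylf-ps*.

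The developmental skeletal myosin heavy chains were close to the floor. *Myh3* (ENSMUSG00000020908, chr11:67078300-67102291, plus strand), the embryonic chain, had 27, 6 and 0 counts in *Smyd1-KO* hearts 1 to 3 and 5, 3 and 5 counts in WT hearts 1 to 3. Its highest count fell in the heart that also had the highest *Myog* and *Pax7* counts, and a link between these genes was not tested. *Myh8* (ENSMUSG00000055775, chr11:67277124-67308634, plus strand), the perinatal chain, had 8, 0 and 4 counts in *Smyd1-KO* hearts and 27, 6 and 43 counts in WT hearts, so the groups overlapped. Without *Smyd1-KO* heart 1 *Myh8* was tested and not called (log2 fold change -3.45, SE 1.17), at 0 and 4 counts in the remaining *Smyd1-KO* hearts. Both genes lie in the skeletal myosin heavy chain cluster, in which *Myh2* is the nearest neighbour of *Myh3* at higher coordinates and *Myh4* and *Myh13* flank *Myh8*. Of their windows of 75 bases, 1.84% for *Myh3* and 7.04% for *Myh8* also occur in transcripts of other genes, mostly of this cluster, which makes counts this low uncertain.

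*Actn3* (ENSMUSG00000006457, chr19:4861216-4877909, minus strand), the alpha-actinin of fast fibre Z-discs, was the only tested member whose CPM did not overlap between the genotypes, a separation that 31.3% of all tested genes showed in either direction. The *Smyd1-KO* hearts had 9.09 CPM, 6.46 CPM and 7.39 CPM and the WT hearts 5.22 CPM, 4.95 CPM and 3.84 CPM. Every *Smyd1-KO* heart thus exceeded every WT heart. Its log2 fold change was 0.71, its 95% interval ran from 0.25 to 1.18 (edgeR unadjusted *P* = 0.00831, adjusted *P* = 0.0822), and it missed the threshold. DESeq2 gave an adjusted *P* of 0.00845, and over all alternatives the adjusted values ran from 0.00845 to 0.837. Without *Smyd1-KO* heart 1, the heart with the highest level, the log2 fold change was 0.57 (SE 0.20, edgeR adjusted *P* = 0.118). Its cardiac counterpart *Actn2* was lowest in that same heart, at 302 CPM, against 372 to 633 CPM in the other 5 hearts.

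Since most members varied between hearts along with the cardiac sarcomere genes, each family was also read as a ratio within a heart, which does not depend on library scaling. Counts plus 0.5 were divided by transcript length, the skeletal sum was divided by the cardiac sum, and the log2 ratios of 3 *Smyd1-KO* and 3 WT hearts were compared in a two-sided exact permutation test, for which the smallest possible *P* is 0.1. In 4 of 8 families, namely sarcomeric actin, alpha-actinin, the regulatory light chain and troponin I, every *Smyd1-KO* heart had a higher skeletal share than every WT heart. Such ratios have no counterpart over all genes. Of all tested genes, each scaled to the summed counts of the cardiac counterparts, 6.61% lay above WT without overlap in *Smyd1-KO* hearts and 2.21% below. That share is for single genes of all kinds, and is not a measure of how often a ratio between 2 sets of muscle genes would separate. Of the 12 cardiac counterparts themselves, 2 lay above and 3 below on that scale. In the other 4 families the genotypes overlapped.

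For actin, *Acta1* made up 11.2%, 10.8% and 11.8% of the *Acta1* and *Actc1* sum in *Smyd1-KO* hearts 1 to 3 and 7.73%, 7.92% and 7.10% in WT hearts 1 to 3. *Smyd1-KO* heart 1, which was low for both actins, did not differ from the other *Smyd1-KO* hearts in this share. The mean log2 ratio was -2.98 (SD 0.07, n = 3) in *Smyd1-KO* hearts and -3.61 (SD 0.09, n = 3) in WT hearts, a difference of 0.63 or 1.55-fold (exact permutation *P* = 0.1). This difference was many times the spread between hearts of a genotype, and without *Smyd1-KO* heart 1 it was 0.64.

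The regulatory light chains gave a similar picture. *Mylpf* accounted for 1.05%, 0.973% and 0.953% of the sum with *Myl2* and *Myl7* in *Smyd1-KO* hearts 1 to 3, and for 0.679%, 0.675% and 0.748% in WT hearts 1 to 3. Mean log2 ratios were -6.64 (SD 0.07, n = 3) and -7.15 (SD 0.08, n = 3), a difference of 0.51 or 1.42-fold (exact permutation *P* = 0.1), and 0.46 without *Smyd1-KO* heart 1. Against *Myl7*, the atrial light chain and the larger part of the cardiac sum, the difference was 0.55, and against *Myl2*, the ventricular light chain, 0.29, where the genotypes barely separated. These single-gene ratios were added after the values had been seen.

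In the troponin I family, *Tnni2* made up 2.11%, 2.07% and 3.00% of the sum with *Tnni1* and *Tnni3* in *Smyd1-KO* hearts and 1.68%, 1.49% and 1.54% in WT hearts. The difference in mean log2 ratio was 0.60 or 1.51-fold (SDs 0.31 and 0.09, n = 3 each, exact permutation *P* = 0.1), and 0.68 without *Smyd1-KO* heart 1. *Tnni1*, the slow skeletal isoform, is itself the main troponin I of the embryonic heart and was counted on the cardiac side. *Tnni1* made up 78.4 to 79.6% of the *Tnni1* and *Tnni3* sum in *Smyd1-KO* hearts and 79.5 to 82.2% in WT hearts, and these ranges overlapped.

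For alpha-actinin, the share of *Actn3* beside *Actn2* was 3.05%, 1.11% and 1.34% in *Smyd1-KO* hearts and 0.854%, 0.882% and 1.07% in WT hearts. The lowest *Smyd1-KO* heart and the highest WT heart were only 0.05 apart on the log2 scale. The difference of 0.84 (SDs 0.79 and 0.18, n = 3 each, exact permutation *P* = 0.1) rested in large part on *Smyd1-KO* heart 1, and was 0.39 without it.

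The other families showed no separation. Skeletal troponin T, *Tnnt1* plus *Tnnt3* beside *Tnnt2*, made up 2.99%, 2.16% and 2.38% in *Smyd1-KO* hearts and 2.47%, 2.39% and 2.68% in WT hearts, with a difference of -0.01 in mean log2 ratio (SE 0.15, exact permutation *P* = 0.9). The *Tnnt1* ratio alone differed by 0.0079 and the *Tnnt3* ratio alone by -0.05. For the essential light chains, *Myl1* beside *Myl3* and *Myl4* made up 1.38%, 3.54% and 3.40% in *Smyd1-KO* hearts and 1.95%, 3.37% and 3.80% in WT hearts (difference -0.20, SE 0.55, exact permutation *P* = 0.7). Both *Smyd1-KO* heart 1 and WT heart 1 were low in this share, and without *Smyd1-KO* heart 1 the difference was 0.25. In the myosin heavy chain and troponin C families the skeletal side was at most 0.0258% and 0.00855% of the sum in any heart, and the ratios rest on too few counts to compare.

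**Figure D3:**
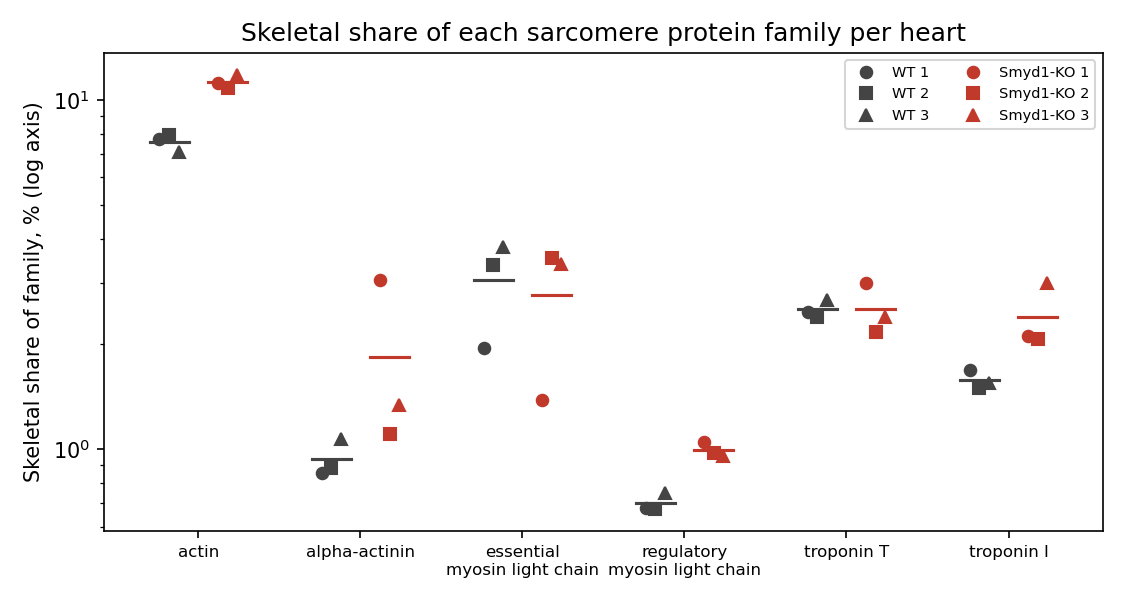
Skeletal share, in percent on a log axis, of the length-scaled level of 6 sarcomere protein families in each heart, WT in grey and *Smyd1-KO* in red, with circles, squares and triangles for replicates 1, 2 and 3 and bars for the mean of 3 hearts. The *Smyd1-KO* hearts lie at 10.8 to 11.8% and the WT hearts at 7.10 to 7.92% for actin, without overlap, while the genotypes overlap for troponin T.

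As the cardiac genes could themselves differ between the genotypes, they were examined beside the members. Of the 12 cardiac counterparts, edgeR and DESeq2 each called 0, with 1 at an unadjusted *P* under 0.05 in edgeR. Their median log2 fold change was -0.12, and ran from -0.34 without WT heart 3 to 0.16 without *Smyd1-KO* heart 1. *Myh6*, the alpha myosin heavy chain, had the lowest value (-0.71, SE 0.28, edgeR adjusted *P* = 0.172) and *Myh7*, the beta chain, the highest (0.62, SE 0.34, edgeR adjusted *P* = 0.306). When *Smyd1-KO* heart 1 was left out, edgeR called 1 of the 12, *Myh7*, at a log2 fold change of 0.92. Within the heart, *Myh7* made up 51.4%, 57.5% and 54.2% of the *Myh6* and *Myh7* sum in *Smyd1-KO* hearts 1 to 3 and 34.2%, 32.6% and 31.0% in WT hearts 1 to 3, a difference of 1.30 in log2 ratio (exact permutation *P* = 0.1). The genotypes were far apart in this share, which was computed after the values had been seen. Between these adjacent paralogues 13.7% of the windows of *Myh6* and 10.6% of those of *Myh7* are shared, and the counting tool's handling of such reads is not given in the sources used here. For *Actc1* the log2 fold change was -0.12, for *Actn2* -0.11, for *Myl2* 0.21, for *Myl3* 0.29, for *Myl4* -0.12, for *Myl7* -0.09, for *Tnnt2* -0.21, for *Tnni1* -0.28, for *Tnni3* -0.13 and for *Tnnc1* -0.15, with edgeR adjusted *P* from 0.646 to 0.897.

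When counts were expressed per 1000 counts on the 12 cardiac counterparts of the same heart, a scale added after the values had been seen, 4 of the 7 tested members had every *Smyd1-KO* heart above every WT heart and 0 had the reverse. Over all tested genes 6.61% lay above in this way and 2.21% below. Of the 12 cardiac counterparts, whose summed counts set this scale, 2 lay above, *Myh7* and *Myl3*, and 3 below, *Myh6*, *Tnnt2* and *Tnni1*. *Acta1* had 39.7, 35.2 and 39.1 counts on this scale in *Smyd1-KO* hearts 1 to 3 and 27.2, 23.7 and 21.3 in WT hearts 1 to 3. *Mylpf* had 1.31, 1.28 and 1.30 in *Smyd1-KO* hearts and 0.907, 0.809 and 0.888 in WT hearts, and was thus nearly constant within the *Smyd1-KO* group. *Actn3*, the third of these genes, had 0.952, 0.325 and 0.370 in *Smyd1-KO* hearts and 0.239, 0.257 and 0.311 in WT hearts. Only *Smyd1-KO* heart 1 lay far above the WT hearts for it, and *Smyd1-KO* heart 2 was close to WT heart 3. For *Tnni2*, the fourth, the separation was minimal, 0.528 in *Smyd1-KO* heart 1 against 0.526 in WT heart 1. On the same scale *Smyd1* had 10.6, 11.2 and 10.3 counts in *Smyd1-KO* hearts and 19.0, 19.7 and 21.8 in WT hearts. In edgeR with this scaling 0 of 7 members and 217 of 19372 genes (1.12%) were called, and the median log2 fold change of all tested genes moved to 0.19.

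Further genes of the skeletal contractile apparatus were mostly low. Of 15 other skeletal sarcomere genes 8 were tested and 0 were called, with 1 at an unadjusted *P* under 0.05 in edgeR, 1 called by DESeq2, *Myot*, and a median log2 fold change of -0.18 (-0.37 to -0.0027 with a heart left out). *Myot*, which encodes the Z-disc protein myotilin, had the lowest value, with 0.103 CPM, 0.203 CPM and 0.123 CPM in *Smyd1-KO* hearts and 1.19 CPM, 0.252 CPM and 0.691 CPM in WT hearts (log2 fold change -2.28, SE 0.61, edgeR adjusted *P* = 0.0756). *Mybpc1*, a myosin binding protein of slow fibres, had the highest (0.23, SE 0.72). *Lmod3*, an actin filament nucleator of muscle, was the most abundant, at 10.2 to 20.2 CPM in *Smyd1-KO* hearts and 10.0 to 25.9 CPM in WT hearts. Per 1000 counts on the cardiac counterparts 0 of the 8 genes had all *Smyd1-KO* hearts above all WT hearts, beside 6.61% of all tested genes, and 3, *Myoz1*, *Myot* and *Klhl41*, had the reverse, beside 2.21%.

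Of 8 skeletal genes for calcium handling and excitation-contraction coupling 7 were tested and 0 were called, with 1 at an unadjusted *P* under 0.05 in edgeR and 1, *Cacna1s*, called by DESeq2. Their median was -0.11, 0.06 with DESeq2, 0.04 without *Smyd1-KO* heart 1 and -0.17 to 0.13 over all hearts left out in turn. *Cacna1s*, the pore subunit of the skeletal L-type calcium channel, had the highest log2 fold change (1.16, SE 0.43, edgeR adjusted *P* = 0.153). It had 2.30 CPM, 7.87 CPM and 6.57 CPM in *Smyd1-KO* hearts and 2.95 CPM, 2.60 CPM and 1.92 CPM in WT hearts, so *Smyd1-KO* hearts 2 and 3 were high and *Smyd1-KO* heart 1 lay among the WT hearts. Without that heart edgeR called it, at a log2 fold change of 1.54, as the only gene of the list. *Casq1*, a calcium store protein and the most abundant of the list, ranged from 82.1 to 192 CPM in *Smyd1-KO* hearts and from 97.2 to 161 CPM in WT hearts (log2 fold change 0.21). *Stac3*, an adaptor of that channel, had the lowest value (-0.56, SE 0.28, edgeR adjusted *P* = 0.257). Per 1000 counts on the cardiac counterparts, 3 of the 7 genes, *Cacna1s*, *Casq1* and *Jsrp1*, had all *Smyd1-KO* hearts above all WT hearts, beside 6.61% of all tested genes, and 0 had the reverse, beside 2.21%.

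All 16 regulators of muscle sarcomere genes were tested. With edgeR 0 were called, 5 reached an unadjusted *P* below 0.05 and DESeq2 called 2, *Smyd1* and *Tead4*, while the median log2 fold change of the list was -0.10 (-0.16 to -0.0055 with a heart left out). *Tead4*, which binds the MCAT element of muscle genes, had the highest value, with 22.1 CPM, 29.5 CPM and 33.7 CPM in *Smyd1-KO* hearts and 21.0 CPM, 20.6 CPM and 18.8 CPM in WT hearts (log2 fold change 0.50, SE 0.16, edgeR adjusted *P* = 0.111). Without *Smyd1-KO* heart 1 it was 0.65 and *Tead4* was called, as the only gene of this list. *Vgll2*, a TEAD cofactor, had the lowest value but was variable within both genotypes, at 2.54 to 28.9 CPM in *Smyd1-KO* hearts and 13.4 to 37.2 CPM in WT hearts (log2 fold change -1.09, SE 0.84). *Chd4* was the most abundant of these genes.

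Likeness between genes was measured as Pearson's r of log2 CPM over the 6 hearts, among the 13049 other genes whose log2 CPM averaged 1 or more, for the 5 members with a mean of at least 10 CPM. These values describe the libraries, which share makeup and depth, and carry no test. For *Acta1* the nearest genes were *Slc25a11* (r = 0.996), *Akt1s1* (0.994) and *9530068E07Rik* (0.993). *Tnnt1* was nearest to *Klhl21* (r = 0.999), *Csrp3* (0.998) and *Prkar1a* (0.997), of which *Csrp3* encodes a Z-disc protein of striated muscle. For *Tnnt3* they were *1500015A07Rik* (r = 0.997), *Mfsd3* (0.994) and *Chmp1a* (0.990). *Myl1* had *Arhgef17* (r = 0.995), *Sptb* (0.993) and *Tchh* (0.990), and *Mylpf* had *Pip5k1b* (r = 0.998), *Fam189a2* (0.997) and *Tmem179* (0.995). Among the members, *Acta1* and *Mylpf* were close to each other (r = 0.980), and *Tnni2* was close to both (r = 0.922 and 0.954). Likeness to cardiac counterparts depended on the counterpart. *Tnnt1* had r = 0.982 to *Tnnt2* and 0.980 to *Actc1* but 0.555 to *Myh7*, and *Acta1* had r = 0.936 to *Myl3* and 0.913 to *Myh7* but 0.801 to *Actc1*. *Mylpf* was nearer to *Myl3* (r = 0.968) than to *Tnni2*.

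By position, *Tnnt1* lies 1922 bases from the cardiac gene *Tnni3* (chr7:4518305-4524229) on the same strand, the only nearest neighbour of a member that is itself a cardiac counterpart or another member. The r between them was 0.979, which was not particular to the neighbour. *Tnnt1* had r = 0.982 to *Tnnt2* and 0.980 to *Actc1*, which lie on other chromosomes. *Tnni2* and *Tnnt3* lie on the same chromosome with *Lsp1* between them. *Mylpf* has *Sept1* 148 bases away on the opposite strand. Genes annotated on the opposite strand overlap *Acta1* (*Gm20388*), *Tnnt3* (*Prr33*) and *Tnnc2* (*Ube2c*), and the strand setting of the counting is not given in the sources used here.

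Windows of 300 bases around a RefSeq transcript start (250 before and 50 after), on build GRCm38.p6, were found for 7 of 10 members and 12 of 12 cardiac counterparts. No window was listed for *Actn3*, *Tnni2* and *Tnnt3*. These starts need not be the outermost annotated start of the gene. Relative to that start, counted along the gene, *Acta1* was at -24 bases and *Actc1* at 673, and the farthest were *Mylpf* among members, at 2718, and *Myl3* (21817), *Tnni1* (19987 and 20077) and *Myl2* (-8227 and -7762) among counterparts. Each was searched on both strands for TATAAA, the MCAT element CATTCC, the E-box CANNTG and, by name, the CArG box bound by SRF and the MEF2 motif, which occur in 13.6%, 14.7%, 72.3%, 1.63% and 1.86% of all 32851 windows of this length. The 2 actin windows are shown because the ratio of these genes separated the genotypes. The *Acta1* window (chr8:123894726-123895025, minus strand) holds a CArG box at bases 178 to 187, an MCAT element at 205 to 210 and TATAAA at 244 to 249, with 2 E-boxes, whereas that of *Actc1* (chr2:114052826-114053125, minus strand) holds a CArG box at 204 to 213, TATAAA at 284 to 289, after the start used, and 1 E-box, but no MCAT element. Capitals mark the CArG box, the MCAT element and TATAAA, positions count from the 5′ end, and these matches do not overlap each other. By gene, TATAAA was found for 5 of 7 members and 3 of 12 cardiac counterparts, an E-box for 7 of 7 and 11 of 12, and a MEF2 motif for 1 of 7, *Myh8*, and 0 of 12. An MCAT element was found for 2 of 7 members, *Acta1* and *Myl1*, and for 6 of 12 cardiac counterparts, *Myh6*, *Myh7*, *Myl3*, *Myl7*, *Tnnc1* and *Tnnt2*. A CArG box was found for *Acta1* and for 3 cardiac counterparts, *Actc1*, *Myl3* and *Myl7*, and no CArG box was found in those of *Mylpf*, *Myl1*, *Tnnt1*, *Tnnc2*, *Myh3* and *Myh8*. A match describes letters in the window and not a bound site.
*Acta1*: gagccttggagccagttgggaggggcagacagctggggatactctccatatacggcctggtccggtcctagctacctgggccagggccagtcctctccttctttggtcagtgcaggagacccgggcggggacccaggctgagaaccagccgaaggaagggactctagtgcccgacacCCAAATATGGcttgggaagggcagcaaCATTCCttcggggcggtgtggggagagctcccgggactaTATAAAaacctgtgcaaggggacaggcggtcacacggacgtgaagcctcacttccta
*Actc1*: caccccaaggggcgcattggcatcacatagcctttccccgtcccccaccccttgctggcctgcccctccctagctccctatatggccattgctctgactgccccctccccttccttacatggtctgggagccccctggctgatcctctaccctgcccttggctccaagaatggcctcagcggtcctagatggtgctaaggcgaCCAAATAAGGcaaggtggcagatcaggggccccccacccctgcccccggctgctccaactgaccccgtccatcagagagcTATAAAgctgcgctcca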

How the data were processed

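RNA-seq was measured in 6 E9.5 heart samples, 3 per genotype, grouped by their labels. The authors selected poly A RNA, sequenced both ends of the fragments over 75 bases and used STAR for alignment to mm10. The deposited values are raw read counts per gene, without normalization. The counting tool, its annotation and its strand setting are not given in the sources used here. The second deposited table, of normalized values, was not used here. Total counts per heart were 48627825 to 64217529, and hearts of a genotype differed beyond counting error (chi-square per degree of freedom 35.8 to 117, common biological coefficient of variation 22.5%).

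The comparison used edgeR 4.0.16 under R 4.3.3 (filterByExpr, TMM, quasi-likelihood test, Benjamini-Hochberg adjustment over all 19372 tested genes), and SE is the log2 fold change divided by the square root of F. Intervals of 95% use the t distribution of that fit. A prior count of 2 was used on the log2 scale. Gene positions and principal transcript lengths came from GENCODE on GRCm38. Ratios were tested by exact permutation. DESeq2 1.42.0, RLE and upper-quartile factors, other filters on low counts, no fold limit, leaving out mitochondrially encoded and haemoglobin genes, the replicate block and leaving out each heart were alternatives, and scaling to the cardiac counterparts was added after seeing the data. The edgeR and DESeq2 steps were tested on simulated data. Further tools were scipy 1.17.1, pandas 2.3.3, matplotlib 3.10.9 and Python 3.11.15.

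The members and lists were chosen with earlier results of these data known. Named genes are the members, the called, highest, lowest and most abundant genes of each list of sarcomere, calcium and regulator genes, the cardiac counterparts, *Smyd1*, *Chd4*, the 3 genes most alike each member above 10 CPM, and neighbours that are members or counterparts. Other genes were named after their values were seen.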

Additional observations from a re-analysis of the deposited data

How the results depend on the processing

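The count of genes called across all genes was 830, and was 1749 with DESeq2, 217 with scaling to the cardiac counterparts and 97 to 1256 when each heart was left out in turn, lowest without WT heart 2 and highest without *Smyd1-KO* heart 1. The count of members called was 0, and was 1 with DESeq2 and 0 to 1 with a heart left out. The log2 fold changes of *Acta1*, *Tnnt3*, *Tnni2*, *Mylpf* and *Actn3* kept their sign in all 15 alternatives, although that of *Tnni2* was only 0.0109 without *Smyd1-KO* heart 3. That of *Tnnt1* ran from -0.43 to 0.0495 and that of *Myl1* from -0.20 to 0.59 with a heart left out. Family ratios for actin (0.58 to 0.67), the regulatory light chain (0.46 to 0.56), troponin I (0.42 to 0.69) and alpha-actinin (0.39 to 1.14) stayed positive with any heart left out, while those for the essential light chain (-0.50 to 0.25) and troponin T (-0.15 to 0.0932) took either sign. The family differences in log2 ratio kept their sign without length scaling and with no added count, which gives no value for troponin C. The fits that leave a heart out also had fewer hearts, and the causes of these shifts were not tested.

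Hearts of the same number come from different embryos, and their deviations correlated at -0.22, -0.05 and -0.18, so the numbers do not pair them. With the replicate block 59 genes were called, all among the 830, and 0 members, and the log2 fold change of *Myl1* was -0.19. Within same-numbered hearts the mean family differences are the same by construction, 0.63 for actin, 0.84 for alpha-actinin, 0.51 for the regulatory light chain, 0.60 for troponin I, -0.01 for troponin T, -0.20 for the essential light chain, -0.82 for the myosin heavy chain and -0.68 for troponin C, and the exact sign-flip test cannot go below *P* = 0.25. Depth limits *Tnnc2*, *Myh3* and *Myh8* most.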
